A study of Rattus norvegicus with 3 samples.

Results

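The urea cycle and ammonia handling genes are 8 liver genes, Cps1, Otc, Ass1, Asl, Arg1, Nags, Glul and Gls2, of 12100 genes named in the 2 peak lists. They were chosen by name, and every peak whose gene field named one of them was taken, which gave 11 of 7128 peaks in the olanzapine list and 29 of 19449 in the clozapine list. H3K4me2, the dimethyl mark on lysine 4 of histone H3, was profiled by chromatin immunoprecipitation and sequencing in whole liver of female Sprague-Dawley rats. One library each came from the olanzapine group (3 mg/kg), the clozapine group (20 mg/kg) and the vehicle group, given sweet cookie dough without drug. Each group held 12 animals, dosed 2 times daily over 9 weeks. The paper does not state whether a library came from a single animal or a pool. Olanzapine was mixed into the dough, while clozapine was given by syringe into the mouth from early in the treatment, followed by a drug-free pellet. All rats were fasted before they were killed. The vehicle library was not analysed here. The question of the study was whether long treatment with the drugs differs in its effect on this mark in liver.

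The urea cycle turns ammonia, which is released when amino acids are broken down, into urea for excretion, and runs in full in hepatocytes. Carbamoyl phosphate synthetase and ornithine transcarbamylase work in the mitochondria and argininosuccinate synthase, argininosuccinate lyase and arginase in the cytosol. Hepatocytes around the portal vein run the cycle, and those around the central vein take up the remaining ammonia by making glutamine. H3K4me2 usually marks promoters and enhancers of genes that are active or poised.

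Each drug has 1 library and no replicate, so all values describe 2 libraries and no difference between the drugs was tested. In what follows, "under olanzapine" and "under clozapine" mean in that drug's library. Drug, animal and library cannot be told apart. In whole liver, fewer cells of a type and less of the mark per cell cannot be told apart either. The authors' lists give for each peak its length, its fold enrichment (a ratio to a background the sources do not name), -log10 of p and q, and 1 class relative to genes. The lists give no read number for a peak. The clozapine library had far fewer reads aligned to the genome than the olanzapine library by the study's own summary, although similar numbers were sequenced, and the part of this gap in depth in the differences between the libraries below was not tested. The median peak was 577 bp long with a fold enrichment of 4.30 under olanzapine and 171 bp long with a fold enrichment of 3.78 under clozapine. Counts of genes with an upstream, 5′ UTR or exonic peak also include peaks of the splicing class, here and below. Hepatocyte markers carried an upstream, 5′ UTR or exonic peak in 17 of 20 genes under olanzapine, where 18.2% of all protein-coding genes did, and in 16 of 20 under clozapine, where 11.6% did. Of 17 markers of other liver cells, 0 carried one under olanzapine and 6 under clozapine, beside the same shares of all genes (Stab2, Kdr, Pecam1, Pdgfrb, Krt19 and Sox9). The part of these cells in the results was not tested.

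The sequences just before the gene starts are shown for 5 members because promoters rich in CpG dinucleotides tend to carry methylation of H3K4, and these members span a wide range of CpG content. Each is the 250 bases before the first transcribed base from RefSeq, build GRCr8, written 5′ to 3′ with every CpG in capitals. The peak coordinates are in another build, Rnor_6.0, so no peak was placed on these bases.
Cps1, chr9:76063613-76063862, plus strand: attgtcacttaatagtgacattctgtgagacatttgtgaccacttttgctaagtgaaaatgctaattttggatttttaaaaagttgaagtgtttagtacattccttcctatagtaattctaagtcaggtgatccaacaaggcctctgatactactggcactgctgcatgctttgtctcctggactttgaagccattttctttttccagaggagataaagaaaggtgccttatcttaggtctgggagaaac
Otc, chrX:15202474-15202723, minus strand: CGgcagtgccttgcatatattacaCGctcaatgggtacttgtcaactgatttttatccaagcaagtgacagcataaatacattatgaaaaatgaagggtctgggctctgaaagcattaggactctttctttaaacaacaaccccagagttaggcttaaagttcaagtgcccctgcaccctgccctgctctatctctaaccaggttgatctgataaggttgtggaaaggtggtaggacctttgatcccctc
Nags, chr10:87598266-87598515, plus strand: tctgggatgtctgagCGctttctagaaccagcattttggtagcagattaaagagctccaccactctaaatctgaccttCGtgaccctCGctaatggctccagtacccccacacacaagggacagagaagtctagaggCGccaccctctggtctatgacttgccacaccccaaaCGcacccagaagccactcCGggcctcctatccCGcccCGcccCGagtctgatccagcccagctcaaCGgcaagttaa
Asl, chr12:32295658-32295907, plus strand: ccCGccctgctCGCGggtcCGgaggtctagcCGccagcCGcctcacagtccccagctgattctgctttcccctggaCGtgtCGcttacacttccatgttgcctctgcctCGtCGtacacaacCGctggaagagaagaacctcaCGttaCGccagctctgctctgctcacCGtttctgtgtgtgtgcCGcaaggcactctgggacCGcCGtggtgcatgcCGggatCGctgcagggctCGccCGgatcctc
Gls2, chr7:1201629-1201878, plus strand: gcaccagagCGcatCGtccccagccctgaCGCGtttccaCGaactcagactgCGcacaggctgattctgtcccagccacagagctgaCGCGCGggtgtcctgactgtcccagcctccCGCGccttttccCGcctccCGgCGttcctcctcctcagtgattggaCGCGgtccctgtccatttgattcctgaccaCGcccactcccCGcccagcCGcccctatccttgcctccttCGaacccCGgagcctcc

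The window of Cps1 held 0 CpG and that of Otc 2, against 10 for Nags and 21 each for Asl and the first of the 2 Gls2 promoters. The median over 33469 rat promoters in the table was 5 CpG (quartiles 2 and 15). Of the members not printed, Ass1 held 5 and the 2 Glul promoters 13 and 15, and the second Gls2 promoter held 6. The table matched 7 of the 8 members, and Arg1 had no entry. The GC box GGGCGG, which contains a CpG, was searched on both strands, as were the other motifs, and lay 2 times in the Nags window, 2 times in the first Gls2 window and 1 time each in the Asl window and both Glul windows, and in none of the Cps1, Otc and Ass1 windows. It occurs in 30.5% of all promoters of this length. The TATA box TATAAA lay in the Ass1 window alone among the members and in 12.9% of all promoters. The pentamer CCAAT lay in both Glul windows and the first Gls2 window, and in 34.0% of all promoters. Neither the C/EBP-type motif TTGCNNAA (9.22% of promoters) nor the cAMP response core TGACGT (6.95%) lay in a member window.

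With all peaks of the lists, more members were named under olanzapine than under clozapine. Both libraries named 5 members, and 2 more, Nags and Gls2, were named under olanzapine only. Exonic peaks alone lay in different members in the 2 libraries. Any peak named 7 of the 8 members under olanzapine, where 28.8% of 23148 protein-coding genes were named, and 5 of 8 under clozapine, where 42.1% were. Outside the intergenic class the counts were 6 of 8 under olanzapine (21.4% of all protein-coding genes) and 3 of 8 under clozapine (22.6%). Counting upstream, 5′ UTR or exonic peaks alone, they were 4 of 8 under olanzapine (18.2% of all protein-coding genes) and 3 of 8 under clozapine (11.6%). All member peaks of these classes were exonic. The 4 members with an exonic olanzapine peak, Asl, Arg1, Nags and Gls2, had none under clozapine, and the 3 with exonic clozapine peaks, Cps1, Ass1 and Glul, had none under olanzapine. The share of all genes with such peaks in only 1 library was not computed. This split is thus not shown to be particular to the members. With only the genes that have a curated transcript, the shares under olanzapine were 35.9% for any peak, 26.8% outside the intergenic class and 22.7% for the last count, and those under clozapine 52.5%, 28.2% and 14.4%. The larger counts under olanzapine did not hold for stronger peaks alone. With a -log10 q of at least 5, any peak named 0 members under olanzapine and 3 under clozapine, and both other counts were 0 under olanzapine and 2 under clozapine. Arg1 was among the 3 only through an intergenic peak 224 kb away. Of all peaks, 6.10% under olanzapine and 19.4% under clozapine reached that q. The share of all genes at this limit and the next was not computed. With a fold enrichment of at least 5, any peak named 2 members under olanzapine and 2 under clozapine, and both other counts were 1 under each drug. At that limit only intergenic peaks named Cps1 under olanzapine and Arg1 under clozapine, and the share of all peaks was not computed. The counts rest on 8 genes and 1 library each, and the split was not tested.

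**Figure D1:**
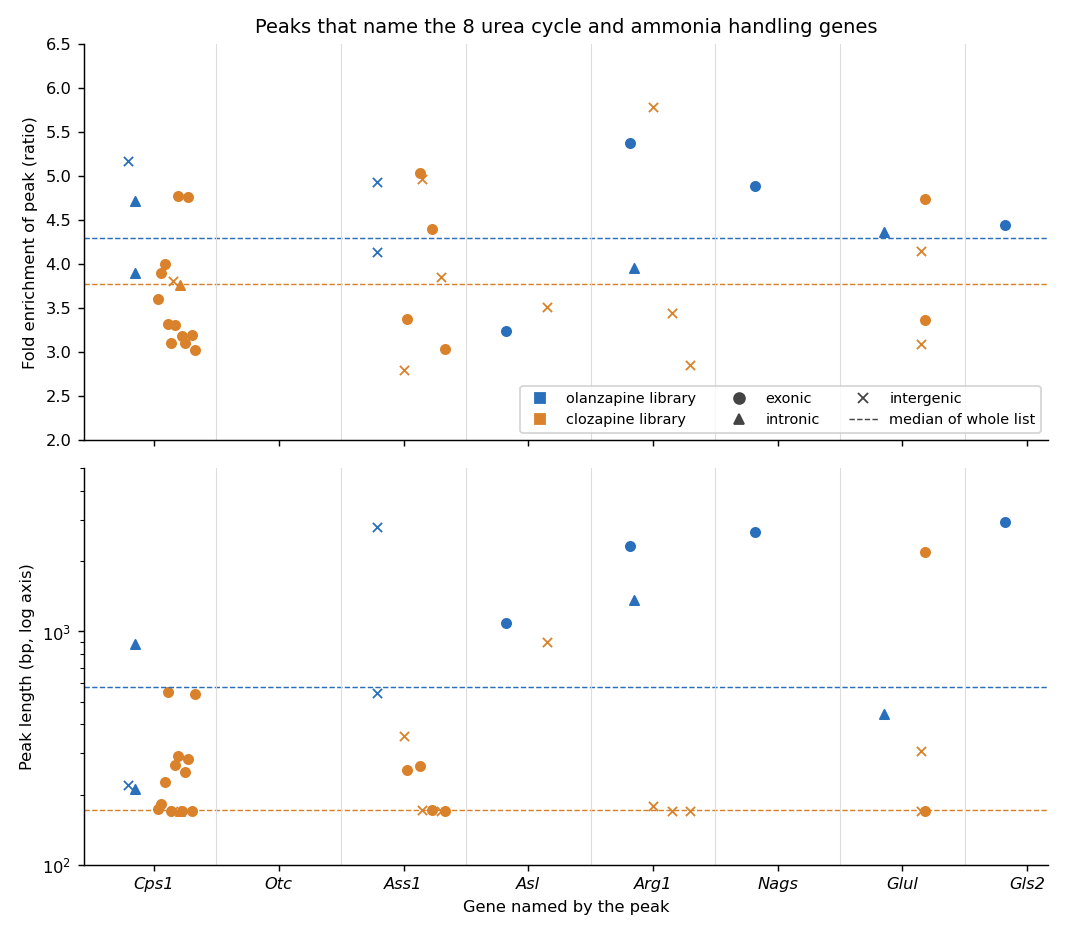
Fold enrichment (upper panel, a ratio) and length (lower panel, bp on a log axis) of every peak that names a member, with olanzapine peaks left of clozapine peaks for each gene, and symbols for the peak class. Dashed lines are the medians of the whole lists, at 4.30 and 577 bp for olanzapine and 3.78 and 171 bp for clozapine. Otc has no point, Nags and Gls2 have olanzapine points only, and the olanzapine exonic peaks are all longer than 1000 bp.

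Where a member had a peak inside the gene under olanzapine it had 1 or 2, and most were long. The 8 olanzapine peaks outside the intergenic class had a median length of 1224 bp (212 to 2939 bp), and their median fold enrichment was 4.40 (3.24 to 5.38). The 19 clozapine peaks outside the intergenic class had a median length of 226 bp (170 to 2189 bp) and a median fold enrichment of 3.38 (3.02 to 5.04). The median lengths of the whole lists, given above, differ in the same direction. A -log10 q of at least 5 was reached by 0 of 11 member peaks under olanzapine (6.10% of that whole list) and by 5 of 29 under clozapine (19.4% of that whole list).

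No olanzapine peak of a member overlapped a clozapine peak of the same member, at a minimum of 1 shared base. In the whole olanzapine list 2.34% of peaks overlapped a clozapine peak, whichever gene it named. The lack of overlap is thus not shown to be particular to the members. The nearest pair lay 2.91 kb apart at Cps1, 3.32 kb at Glul, 5.28 kb at Ass1, 26.3 kb at Asl and 73.7 kb at Arg1.

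Cps1 encodes carbamoyl phosphate synthetase 1, the mitochondrial enzyme that commits ammonia to the cycle, and it held peaks at its beginning under olanzapine and along most of its length under clozapine. The distances that the files give to flanking genes place Cps1 on chromosome 9 from 74124155 to 74235368 (Rnor_6.0, 111 kb). In GRCr8 the gene reads on the plus strand and Lancl1 and Erbb4 flank it in the same order as in the files, which would make the lower coordinate its start. The olanzapine library had 2 intronic peaks, from 74124774 to 74125658 (885 bp, fold enrichment 3.90) and from 74139532 to 74139743 (212 bp, fold enrichment 4.72). They began 0.619 kb and 15.4 kb inside the lower end. An intergenic olanzapine peak of 219 bp with a fold enrichment of 5.17 lay 16.8 kb before the gene.

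The clozapine library had 13 peaks inside Cps1, 12 exonic and 1 intronic, and none within the first 18 kb. The first began 18.5 kb inside the lower end and the last, of 538 bp, began 0.066 kb before the upper end and ran past it. In order along the gene the exonic peaks had fold enrichments of 3.60, 3.90, 4.002, 3.32, 3.10, 3.31, 4.77, 3.19, 3.10, 4.76, 3.20 and 3.02. The stretch from 34.9 to 54.8 kb held 7 of them, so they were not evenly spaced. The strongest by -log10 p (q 5.59 on the -log10 scale) ran from 74201463 to 74201745. Over the 13 peaks the -log10 q ran from 1.54 to 5.67, and 4 peaks were 170 bp long, the shortest length in the clozapine list. Peaks inside the gene covered 1.10 kb under olanzapine and 3.45 kb under clozapine. By its number of exonic peaks Cps1 stood behind Nf1 and Chd2 only, level with Ddr2 and Mtor, among 2585 genes with an exonic clozapine peak, of which 70.7% had 1. The exons covered by these peaks and the length of the other genes were not examined.

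**Figure D2:**
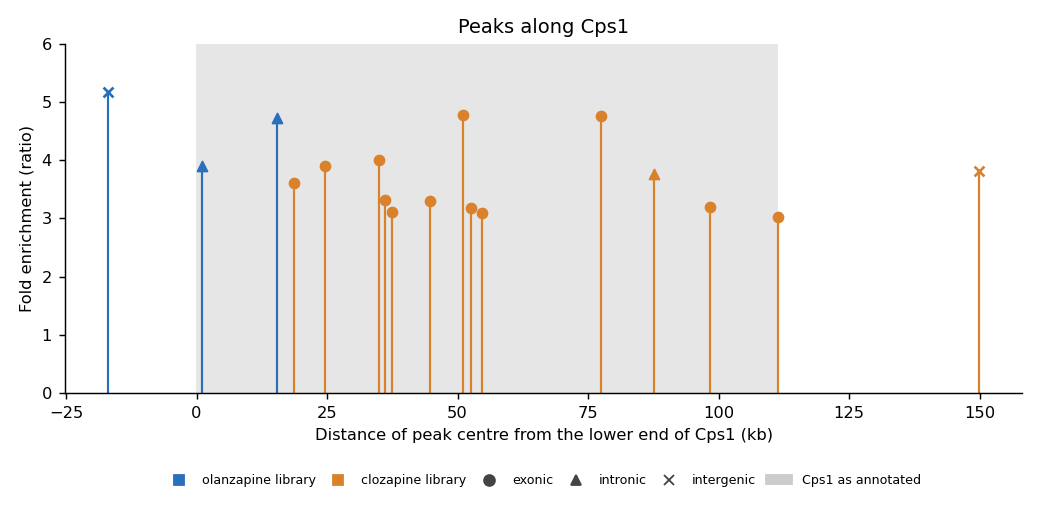
Fold enrichment (a ratio) of each peak that names Cps1 against the distance of its centre from the lower end of the gene in kb, with the gene shaded. The 2 olanzapine peaks inside the gene lie within 16 kb of its lower end, and the 13 clozapine peaks inside it start from 18.5 kb on.

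Otc encodes ornithine transcarbamylase, the X-linked enzyme that joins carbamoyl phosphate to ornithine. It was the 1 member that no peak of either list named, in any class. The lists hold peaks past a threshold only, so this does not show that the mark was absent there. Nags makes N-acetylglutamate, the activator that Cps1 needs. It had a single exonic olanzapine peak on chromosome 10 from 90085284 to 90087948 (2665 bp, fold enrichment 4.89), longer than 98.9% of the peaks of that list. No clozapine peak named Nags. The 2 partners of Cps1 in the mitochondria thus had 1 peak between them.

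Ass1 encodes argininosuccinate synthase, the enzyme that adds aspartate to citrulline, and its peaks lay outside the gene under olanzapine and both inside and outside it under clozapine. The files place the upper end of Ass1 on chromosome 3 at 10369126, the same value in all 5 rows that give it. The neighbours Fubp3 and Ncs1 stand on opposite sides in the files and in GRCr8, where the gene reads on the plus strand. In Rnor_6.0 the upper end would then be its start, although the strand itself is not in the files. The 2 olanzapine peaks lay beyond that end, at 3.64 kb (2804 bp, from 10372761 to 10375564, fold enrichment 4.93) and 16.0 kb (545 bp, fold enrichment 4.14). The first was longer than 99.1% of the peaks of its list.

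The 4 exonic clozapine peaks of Ass1 ended 1.65, 2.89, 31.1 and 41.3 kb below the upper end of the gene. The one from 10337762 to 10338027 (266 bp) had a fold enrichment of 5.04 and a -log10 q of 6.16, and no other member peak inside a gene had as high a -log10 q in either library. The others had fold enrichments of 3.04, 4.40 and 3.38 from the upper end downwards and were 170, 172 and 254 bp long. Another 3 clozapine peaks lay between Ass1 and Ncs1, at 46.3, 61.8 and 170 kb from Ass1, with fold enrichments of 2.80, 4.97 and 3.85. The last of these lay closer to Ncs1 than to Ass1.

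Asl encodes argininosuccinate lyase, which releases arginine and fumarate. It had 1 exonic olanzapine peak on chromosome 12 from 30165989 to 30167075 (1087 bp), 11.3 kb below the upper end of the gene. Its fold enrichment of 3.24 was the lowest of the member peaks in that library and above 2.22% of the whole list. The clozapine library had only an intergenic peak of 904 bp (fold enrichment 3.51), 15.1 kb past the gene towards Gusb.

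Arg1 encodes arginase 1, the enzyme that splits arginine into urea and ornithine, and held the strongest olanzapine peak of the set. The files place its lower end on chromosome 1 at 21525421. An exonic olanzapine peak ran from 21525584 to 21527916 (2333 bp, fold enrichment 5.38, -log10 q 4.51), starting 0.163 kb inside that end, and exceeded 88.1% of its list in fold enrichment. An intronic peak from 21528775 to 21530134 (1360 bp, fold enrichment 3.96) followed it. Together the 2 peaks covered 3.69 kb, the most inside any member in either library. The clozapine library had no peak inside Arg1. Its 3 intergenic peaks lay 73.6, 154 and 224 kb below the gene, with fold enrichments of 2.86, 3.45 and 5.78, of which the last had a -log10 q of 7.59. At those distances the gene name says only which annotated gene is next.

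Glul and Gls2 handle glutamine at the ends of the liver lobule. Glul encodes glutamine synthetase, found in hepatocytes around the central vein, and Gls2 the liver glutaminase, which frees ammonia from glutamine around the portal vein. Glul was the 1 member besides Cps1 with peaks inside the gene in both libraries. Its intronic olanzapine peak ran on chromosome 13 from 71331466 to 71331906 (441 bp, fold enrichment 4.36) and ended 8.30 kb below the upper end of the gene. Its 2 exonic clozapine peaks ran from 71335225 to 71335394 (170 bp, fold enrichment 4.74) and from 71336981 to 71339169 (2189 bp, fold enrichment 3.36). The longer one was above 99.7% of the clozapine list in length and ended 1.04 kb below the upper end. The order of genes around Glul differs between the files and GRCr8, so its strand in Rnor_6.0 was not settled. Another 2 clozapine peaks lay 241 and 405 kb past Glul.

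Gls2 had 1 exonic olanzapine peak on chromosome 7 from 2604286 to 2607224 (2939 bp, fold enrichment 4.44), the longest of all member peaks and longer than 99.3% of its list. No clozapine peak named it. Of the glutamine genes, then, the one for synthesis had exonic peaks under clozapine and the one for breakdown under olanzapine.

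**Figure D3:**
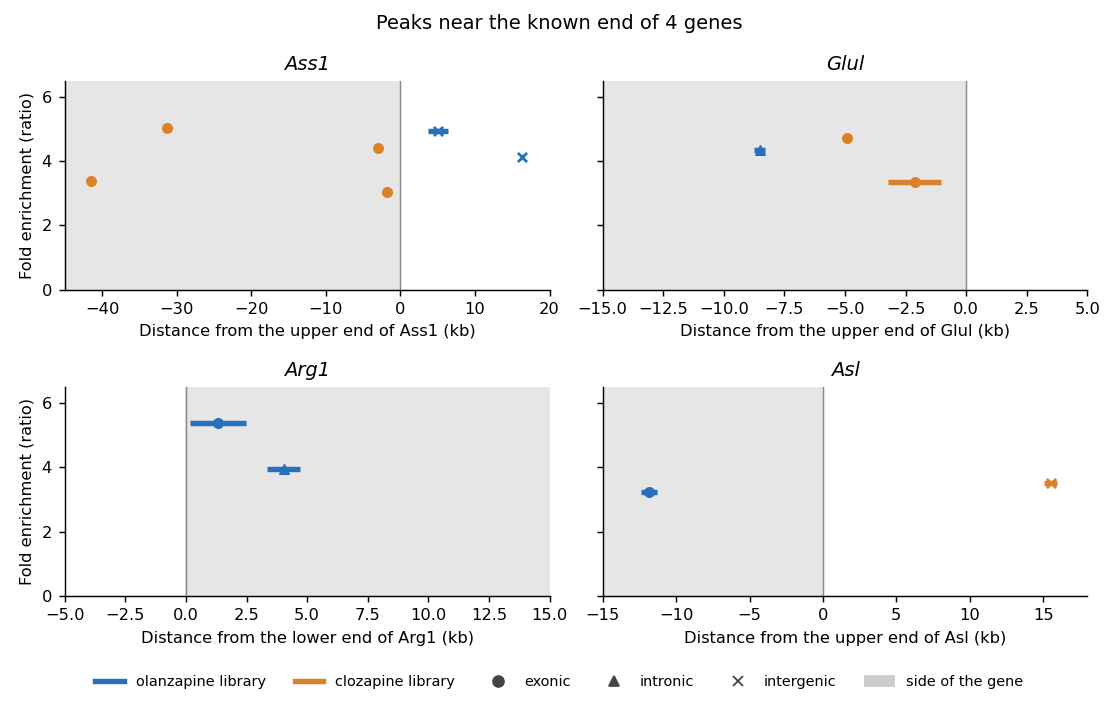
Fold enrichment (a ratio) of peaks of Ass1, Glul, Arg1 and Asl against the distance in kb from the gene end that the files give, with bars as long as the peaks and the side of the gene shaded. Clozapine peaks farther away are outside the panels (3 of Ass1, 2 of Glul and 3 of Arg1). The olanzapine peaks of Ass1 lie beyond the end and its exonic clozapine peaks inside it, while Arg1 has olanzapine peaks only.

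The authors' pathway tables list the genes that entered each term. The members among their input genes were 6 under olanzapine and 3 under clozapine, the same genes that had a peak outside the intergenic class. For the KEGG pathway arginine biosynthesis, 11 of 20 genes were input genes under olanzapine and 10 of 20 under clozapine. The lists shared 6 genes (Cps1, Glud1, Glul, Got1, Got2 and Gpt2), which is 54.5% of the olanzapine and 60.0% of the clozapine genes. For the GO term urea cycle, 5 of 8 genes were input genes under olanzapine (Arg1, Asl, Cebpa, Cps1 and Htt) and 4 of 8 under clozapine (Arg2, Ass1, Cps1 and Htt). Beside these counts, 21.4% of all protein-coding genes under olanzapine and 22.6% under clozapine had a peak outside the intergenic class. The share of all input genes common to both libraries was not computed. No enrichment was tested.

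Genes that supply the cycle carried peaks in both libraries, with more of them under olanzapine, where such peaks were also more common over all protein-coding genes (18.2% under olanzapine and 11.6% under clozapine). Among 18 genes of mitochondrial transport and shared substrates, 6 had an upstream, 5′ UTR or exonic peak under olanzapine and 4 under clozapine. Got1 and Mdh1, enzymes that act on aspartate and malate, had one in both. In these lists each fold enrichment is that of the gene's strongest such peak by -log10 p in that library. The peaks of a gene in the libraries can thus lie at different places. For Got1 they ran from 263269409 to 263270201 under olanzapine and from 263250627 to 263250897 under clozapine. Those of Mdh1 did not overlap either. Got1 had a fold enrichment of 3.82 under olanzapine and 2.90 under clozapine. Mdh2 (4.58), Got2 (3.76) and the glutamate carrier Slc25a22 (4.77) led the olanzapine library by -log10 p. Fumarase, Fh (3.97), and ornithine aminotransferase, Oat (3.56), led the clozapine library. Slc25a15, the ornithine carrier of the cycle, was picked out after its values were seen and had a 5′ UTR peak of 1077 bp under olanzapine (fold enrichment 4.53). Mdh1 had 3.95 under olanzapine and 3.35 under clozapine.

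Among 19 genes of ammonia release and glutamate, 10 had a peak of these classes under olanzapine and 4 under clozapine. Glutamate dehydrogenase, Glud1, had an exonic peak of 2871 bp and fold enrichment 3.83 under olanzapine and one of 170 bp and 3.80 under clozapine. Ahcy was the other gene in both, with 4.44 under olanzapine and 3.46 under clozapine. Neither for Glud1 nor for Ahcy did these peaks overlap between the libraries. The alanine aminotransferase Gpt2 (6.30), Prodh (5.93) and the asparaginase Aspg (5.89) led the olanzapine library. Tyrosine aminotransferase, Tat, had 4.07 under clozapine and no peak of these classes under olanzapine. Among 17 transporters of ammonia, glutamine and cationic amino acids, 7 had such a peak under olanzapine and 2 under clozapine. The glutamine carrier Slc38a3 was in both, with peaks that did not overlap (3.29 under olanzapine and 2.89 under clozapine). Slc38a2 (4.92), Slc7a2 (3.64) and Aqp8 (4.25) led the olanzapine library, and the glutamate carrier Slc1a2 (3.69) the clozapine library.

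Among 17 regulators of the cycle genes, 12 had such a peak under olanzapine and 5 under clozapine. All 5 of the clozapine library, Cebpb, Crtc2, Foxa1 and Foxa2 among them, were among the 12. Klf15, a regulator of amino acid breakdown in fasting, had a 5′ UTR peak under olanzapine (5.26), as did the glucagon receptor Gcgr (5.50). In the clozapine library the strongest by -log10 p was the exonic peak of Crtc2 (4.09), a partner of the cAMP-driven factor Creb1, and Cebpb had 4.51. Under olanzapine Cebpb had 4.73 and Crtc2 3.22. Foxa1 had 4.26 under olanzapine and 3.90 under clozapine, and Foxa2 4.94 under olanzapine and 3.42 under clozapine. These peaks overlapped between the libraries for Cebpb, Foxa1 and Foxa2 and lay apart for Crtc2.

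The 10 genes of the periportal zone had 5 with such a peak under olanzapine and 4 under clozapine, and the 14 of the pericentral zone 4 under olanzapine and 10 under clozapine. Alb (4.06 under olanzapine and 11.1 under clozapine) and Cyp2f4 (4.47 under olanzapine and 2.86 under clozapine) were periportal genes in both. Apoa4 (4.86) and Pck1 (4.29) were periportal genes of the olanzapine library, and Cdh1 (5.44) of the clozapine library. Cyp1a2, Cyp2e1, Lgr4 and Tbx3 were pericentral genes in both. Under olanzapine Cyp1a2 had 5.15, Lgr4 4.74, Tbx3 4.02 and Cyp2e1 3.91, and under clozapine Cyp1a2 had 4.09, Lgr4 3.05, Tbx3 4.02 and Cyp2e1 5.19. Of the periportal and pericentral genes in both, Cyp1a2 alone had strongest peaks that overlapped between the libraries. The strongest pericentral genes of the clozapine library were Ctnnb1 (5.26), Cyp2e1 and Tcf7l2 (4.01), of which Ctnnb1 and Tcf7l2 belong to Wnt signalling and are expressed well beyond this zone. The median fold enrichment of the strongest peak was 4.38 for the 4 olanzapine genes, beside 4.31 over all 4270 genes with such a peak, and 4.01 for the 10 clozapine genes, beside 3.46 over all 2716. Over these 6 lists the olanzapine library had the larger count in 5 and the clozapine library in the pericentral list, beside a share of all protein-coding genes that was itself larger under olanzapine (18.2%) than under clozapine (11.6%), and no difference was tested.

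**Figure D4:**
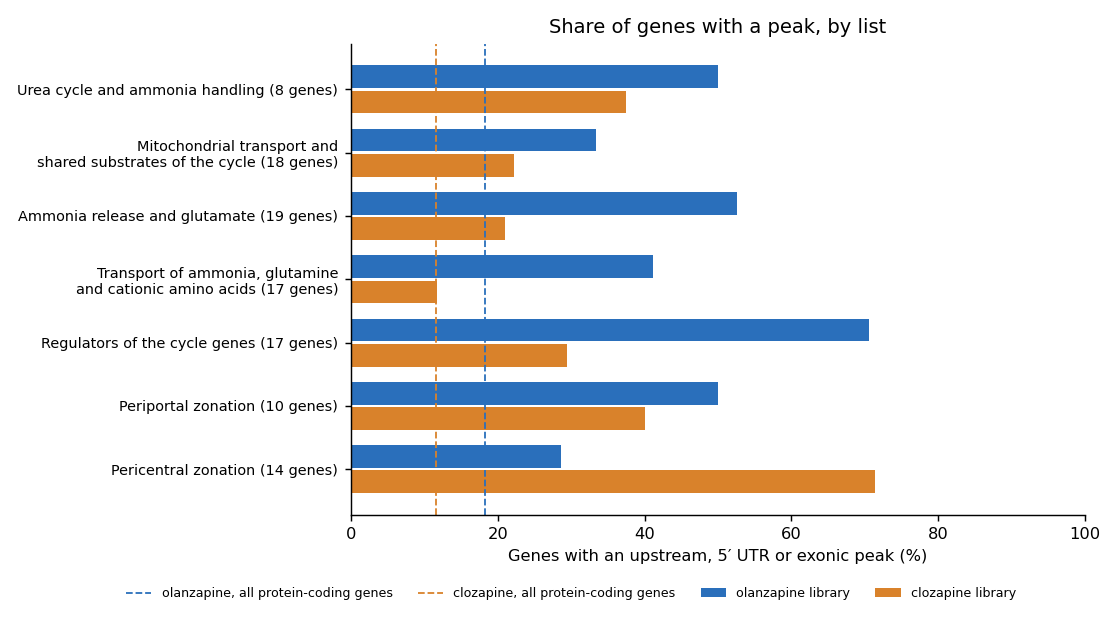
Percentage of genes with an upstream, 5′ UTR or exonic peak in each list, olanzapine bars above clozapine bars, with dashed lines at the share of all protein-coding genes (18.2% for olanzapine and 11.6% for clozapine). The 8 members stand at 50% for olanzapine and 37.5% for clozapine, and the pericentral list is the one where the clozapine bar is longer.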

How the data were processed

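H3K4me2 ChIP-seq of liver was analysed from the peak lists of 1 olanzapine and 1 clozapine library. The authors aligned clean reads with BWA to Rnor_6.0 (the build also stands in the submitters' processing notes) and used only reads that mapped to a single place with no mismatch. The peak caller, its threshold, its control and the annotation version are not given in the sources used here. The authors' deposited lists hold the fold enrichment of each peak as a ratio, and -log10 of its p-value and q-value. The deposited GO and KEGG tables hold counts of input and background genes, and their p-value columns, the authors' own comparison, were not used.

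Members were matched as whole names after splitting the gene field at semicolons. Peaks of the splicing class were counted together with upstream, 5′ UTR or exonic peaks. Gene ends were computed from the distances in intergenic rows (73 of 10276 ends had differing values, none of them of a member). Background shares used the 23148 protein-coding genes of the RefSeq names table (GRCr8), in which 98.0% of the 12100 gene names matched. Members and lists were chosen with earlier results of these data known. Genes named were all members and, per wider list, those with an upstream, 5′ UTR or exonic peak in both libraries and the 3 strongest per library by -log10 p, and some genes that this rule selects are not reported here. Matching, gene ends and overlap were tested on simulated data. Alternatives were limits on q, fold enrichment and length, equal list lengths, the first gene name, other overlap criteria and other gene universes. The deposited lists hold no read numbers, so no peak value was adjusted for depth. The study's own summary gives far fewer aligned reads for the clozapine than for the olanzapine library. Python 3.11.15, pandas 2.3.3, numpy 2.4.6 and matplotlib 3.10.9 were used.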

Additional observations from a re-analysis of the deposited data

How the results depend on the processing

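With a -log10 q of at least 5, members named by any peak numbered 0 under olanzapine and 3 under clozapine, and members with a peak outside the intergenic class, or among upstream, 5′ UTR or exonic peaks, 0 under olanzapine and 2 under clozapine. With a fold enrichment of at least 5 these counts were 2, 1 and 1 under olanzapine and 2, 1 and 1 under clozapine. Both limits thus end the larger count of the olanzapine library. Of all peaks, 6.10% under olanzapine and 19.4% under clozapine reached that q. The share of all genes at these limits, and that of all peaks at the limit of fold enrichment, was not computed. Peaks longer than 200 bp, the first gene name only and equal list lengths kept each count within 1.5 times. Taking the peak of highest fold enrichment gave 4.77 in place of 4.76 for Cps1 and 4.74 in place of 4.16 for Glul, both under clozapine, and no other change, and Arg1 had no clozapine peak longer than 200 bp to rank. No member had overlapping peaks under any of 4 criteria. The limit on q could give none, because 0 olanzapine member peaks reached it. The criterion of 50% of the shorter peak is stricter than the main one and could add none. With the gene names in either list as the universe, the background for any peak was 56.7% under olanzapine and 83.9% under clozapine, outside the intergenic class 41.8% under olanzapine and 44.2% under clozapine, and among upstream, 5′ UTR or exonic peaks 35.3% under olanzapine and 22.5% under clozapine. The universe of curated protein-coding genes, whose shares stand in the report, was added after seeing the data. No replicate could be left out. No paired analysis was possible because each group has 1 library.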

Other observations

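Many clozapine peaks carry exactly the same fold enrichment, -log10 p and -log10 q as another peak of the list, which was true of 44.0% of that list and of 0.884% of the olanzapine list. Among the members it held for 0 of 11 olanzapine peaks and 7 of 29 clozapine peaks. The clozapine peak 170 kb past Ass1 (fold enrichment 3.85) is one of 954 with the same values, the nearest of the 3 below Arg1 (2.86) one of 190, and the nearer of those past Glul (3.10) one of 26. Inside Cps1, the exonic peak with 3.19 is one of 20 and that with 3.20 one of 13.

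The last exonic clozapine peak of Cps1 crosses the annotated end of the gene, and the long one of Glul ends 1.04 kb below the end of that gene at which the strand is not settled. The long olanzapine peak 3.64 kb beyond Ass1 is classed as intergenic, so counts by class leave Ass1 without a peak in the olanzapine library, and the distance of that peak to a start site depends on the strand in Rnor_6.0.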
